A study of Mus musculus with 6 samples.

Results

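Neurog1, Neurod1, Nhlh1, Hes6, Insm1, Sox11, Ebf1, Ebf2 and Olig2 are transcription factors of neuronal precursors and young neurons. They were taken from a fixed list of names, 9 of the 21884 protein-coding genes whose promoters were counted. The list and the grouping of barcodes were chosen with earlier results of these data known, so shares of all promoters beside them are a description. Their chromatin accessibility was read in single-cell ATAC-seq libraries of lineage-traced cells from the mouse olfactory epithelium, before and 24 h after the epithelium was injured. At 8 of the 9 promoters, all but Hes6, accessibility was higher in barcodes with more neuronal marker cut sites than in the other barcodes of the same library, as it was for 10.2% of all promoters tested. When barcodes were assigned after thinning to equal depth, which left 3 libraries, 4 of the 8 were called higher and Hes6 lower. That fit called 1.54% of all promoters higher and 4.16% lower. After injury none of the 9 promoters passed the test over all barcodes, where 3.96% of all promoters did. In the barcodes with fewer neuronal marker cut sites Ebf1 rose, by 1.14 on the log2 scale, where 6.91% of all promoters passed. It did not pass without injured replicate 1 or with the thinned assignment. Its log2 difference stayed at 0.958 to 1.38 with single libraries left out, and was 0.63 with the thinned assignment. The thinned assignment chose only 86 of 4476 barcodes, so the others took in most barcodes with more neuronal marker cut sites. With replicate number as a block, Ebf1 (higher) and Hes6 (lower) passed over all barcodes, and Ebf1 and Insm1 (both higher) in the barcodes with fewer marker cut sites, in fits that called 10.1% and 12.3% of all promoters. Of the 500 bp windows tested over the loci, the members' own promoters included, 11 in 5 of the loci were more accessible after injury, 2.18% against 4.84% over the genome. None of the 11 lay at a member's start, and the largest of these differences on the log2 scale lay 9.29 kb past the start of Olig2.

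The olfactory epithelium replaces its sensory neurons throughout life from basal stem cells. Horizontal basal cells are the quiescent reserve; after injury they divide and give rise to globose basal cells, whose neuronal precursors pass through successive states marked by basic helix-loop-helix (bHLH) factors. Neurog1 and then Neurod1 act in these precursors, Nhlh1 appears as neurons are born, Hes6 is a bHLH factor that counteracts Hes1, Insm1 is a zinc-finger factor of terminally dividing progenitors, Sox11 is an HMG-box factor of young neurons, and Ebf1 and Ebf2 are helix-loop-helix factors that bind olfactory gene promoters. Olig2 is a bHLH factor best known from oligodendrocytes and motor neurons.

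All mice carried Krt5CreER and Rosa26 LSL-YFP/LSL-YFP, so a Cre driven by the keratin 5 promoter turned on YFP in keratin 5 cells, and any progeny made after induction stay labelled as well. The dorsal epithelium of each animal was dissociated separately, and YFP-positive, propidium iodide-negative cells were sorted; the labels call all 6 samples horizontal basal cells. The 3 uninjured libraries came from control mice, and the 3 injured libraries from mice given methimazole by intraperitoneal injection 24 h earlier. In both groups replicate 1 was 8 weeks old, replicate 2 was 6 weeks old and replicate 3 was 6 to 7 weeks old, and the labels call the replicates biological.

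A cut site is 1 end of a sequenced fragment, where the transposase entered open DNA. Barcodes with at least 2000 fragments numbered 454, 889 and 629 in the uninjured libraries (replicates 1 to 3, the order used throughout) and 1338, 420 and 746 in the injured ones, and the libraries held between 14825320 and 44875242 cut sites in them. Of 4420 barcode sequences, 53 occurred in more than 1 library. Levels are CPM, cut sites per 1000000 of a library's cut sites, scaled between samples with TMM factors, in the 2000 bp centred on the start of each gene, so levels of different genes refer to the same length. In a sum over cells, fewer cells that open a promoter and a less open promoter in each cell cannot be told apart. The 6 horizontal basal cell markers summed to between 119 and 170 CPM in uninjured and between 121 and 130 CPM in injured libraries in the barcodes that were not neuron-like; Krt5 and Krt14 were well above 0 there, while Trp63 and Itga6 were near 0 at the start that was counted (means of 0.554 and 0.367 CPM in uninjured, 1.10 and 0.281 CPM in injured libraries).

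Neuron-like barcodes were those with 3 or more cut sites over the gene bodies of Omp, Gng13, Rtp1, Gap43 and Stmn2, and all others are called the rest. There were 813 of 4476. They made up 11.7%, 12.5% and 22.4% of the barcodes of the uninjured libraries and 13.1%, 18.6% and 34.2% of those of the injured ones. The means of 15.5% ± 5.98 and 21.9% ± 10.9 (SD, n = 3 each) did not differ beyond that spread (two-sided exact permutation test, p = 0.5, where 3 against 3 cannot go below 0.1). The injured library had the higher share in 3 of 3 same-numbered pairs, by 1.41 to 11.8 percentage points (two-sided exact sign-flip test, p = 0.25, the smallest that 3 pairs allow). The mean difference of 6.42 percentage points was 3.75 without pair 3, and 0.300 without injured replicate 3 alone. The rule counts cut sites and so favours deep barcodes. Median fragments ran from 22740 to 42271 in neuron-like barcodes and from 7478.5 to 18316.5 in the rest. Expected cut sites over the 5 gene bodies were set from depth and the share of all barcodes' cut sites that fell there. Their median was 3.05 to 5.66 in neuron-like barcodes. That share takes in the cut sites that defined the class, so these expected counts are not from depth alone. Only 336 of the 813 held at least 3 times the expected cut sites. Called doublets made up 26.7% to 50.9% of neuron-like barcodes and 5.27% to 11% of the rest. The 4 mature neuron markers not used in the rule summed to 24.8 to 35.9 CPM in neuron-like barcodes and 16.7 to 24.2 CPM in the rest, while the horizontal basal cell markers were lower, at 54.2 to 109 CPM, but still open. Neuron-like is thus a name for barcodes with more neuronal marker accessibility, and they are not called neurons.

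In the rest, Hes6 and then Sox11 stood above the other promoters, and the order below them was mostly of overlapping neighbours. Hes6 was the most open, at 37.5 ± 4.17 CPM (mean ± SD, 6 libraries), higher than 92.5% of all promoters, and its lowest library (31.1) exceeded the highest of Sox11 (28.3). Sox11 followed at 20.5 ± 6.90 CPM. Insm1 at 6.88 ± 2.23 CPM and Ebf1 at 6.21 ± 2.66 CPM overlapped between libraries, and Ebf2 at 4.24 ± 0.649 CPM overlapped with both. Neurog1 at 2.63 ± 0.718 CPM and Olig2 at 2.31 ± 0.504 CPM were not apart beyond their spread, and Neurog1 also overlapped with Ebf2. Neurod1 at 1.07 ± 0.657 CPM and Nhlh1 at 0.596 ± 0.371 CPM were the least open, at the 34.1 and 30.3 percentiles of all promoters, and they overlapped as well. The highest library of Neurod1 (1.70) lay just below the lowest of Neurog1 (1.72) and of Olig2 (1.79).

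**Figure D1:**
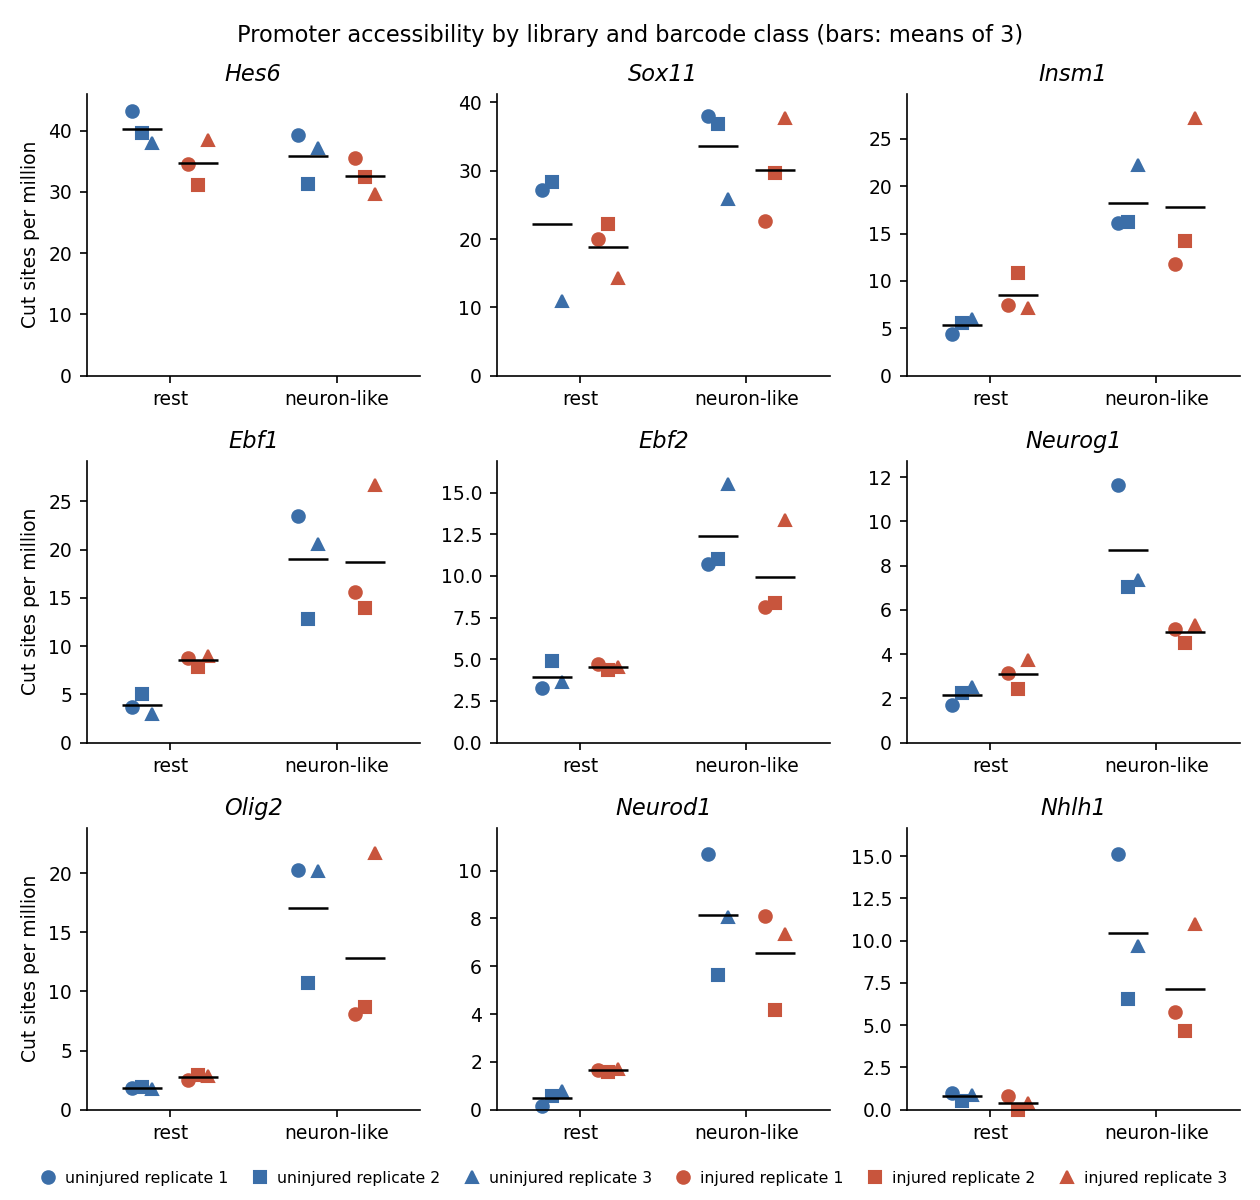
Promoter accessibility of the 9 genes (CPM, scaled over the sums of both classes) in the rest and in neuron-like barcodes, 1 point per library, coloured by group, with bars at the means of 3. Every gene except Hes6 had higher points on the neuron-like side; the Hes6 points spanned 31.1 to 43.2 in the rest and 29.6 to 39.4 in neuron-like barcodes.

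The promoters at the ends of this order are shown, since they differed most between the classes (Nhlh1) and did not pass the test (Hes6). Nhlh1 lies on the minus strand of chromosome 1 with its start at 172057573 (GRCm38), and its nearest other start, of Copa, is 24956 bp away. Hes6 lies on the minus strand of chromosome 1 with its start at 91414038, and the start of Ilkap is 15223 bp away. The 250 bases before each start are from RefSeq GRCm38.p6, written 5′ to 3′ along the gene, with E-boxes (CANNTG, the core that bHLH dimers bind) in capitals.
Nhlh1 chr1:172057574-172057823: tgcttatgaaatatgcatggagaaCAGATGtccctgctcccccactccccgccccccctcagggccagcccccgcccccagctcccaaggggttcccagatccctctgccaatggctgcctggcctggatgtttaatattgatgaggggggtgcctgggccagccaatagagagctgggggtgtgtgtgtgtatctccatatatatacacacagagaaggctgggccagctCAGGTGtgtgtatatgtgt
Hes6 chr1:91414039-91414288: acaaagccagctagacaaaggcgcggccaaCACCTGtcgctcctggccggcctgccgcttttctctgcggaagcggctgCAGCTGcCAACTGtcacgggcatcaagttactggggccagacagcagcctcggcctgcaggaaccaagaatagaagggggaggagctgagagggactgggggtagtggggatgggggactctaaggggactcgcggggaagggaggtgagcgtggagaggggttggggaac
The Nhlh1 stretch holds 2 E-boxes and the Hes6 stretch 3. At least 1 E-box was found before 7 of the 9 starts and before 64.1% of all protein-coding starts, at least 2 before 30.0% and at least 3 before 10.5%, so a match of this short motif is common. No EBF motif and no AP-1 motif (TGANTCA) was found in these 250 bases of any member; all motifs were searched on both strands, and they were found in 0.896% and 6.06% of all promoters.

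Accessibility was higher in neuron-like barcodes than in the rest for Neurog1, Neurod1, Nhlh1, Olig2, Insm1, Sox11, Ebf1 and Ebf2, each of them in 6 of 6 libraries. The background was 22.1% of 16831 tested promoters called, 10.2% higher and 12% lower, where called means an adjusted p under 0.05 in edgeR's quasi-likelihood test with library as a block.

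Among the bHLH activators the difference was largest at Nhlh1. In the rest its promoter measured 1.01, 0.505 and 0.852 CPM in uninjured libraries and 0.807, 0 and 0.397 CPM in injured ones. In neuron-like barcodes it measured 15.1, 6.58 and 9.71 CPM in uninjured and 5.76, 4.64 and 11 CPM in injured ones. The classes did not overlap, and the log2 difference was 3.83 ± 0.305 (SE; edgeR, adjusted p = 4.18e-10). In injured replicate 2 the rest had 0 cut sites there, and 3 cut sites, the limit set here for a count of 0, would be 0.211 CPM before scaling. That limit covers counting error only and takes cut sites as independent, although both ends of each fragment were counted.

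Neurod1 measured 0.156, 0.589 and 0.767 CPM in the rest of the uninjured libraries and 1.65, 1.59 and 1.70 CPM in the rest of the injured ones. Neuron-like barcodes had 10.7, 5.63 and 8.07 CPM in uninjured and 8.12, 4.18 and 7.34 CPM in injured libraries. The lowest neuron-like value was above every value of the rest, and the log2 difference was 2.79 ± 0.342 (edgeR, adjusted p = 4.12e-06). The start of Cerkl lies 34 bp from that of Neurod1, so this window cannot tell the promoters of these genes apart.

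Olig2 measured between 1.79 and 2.90 CPM in the rest. Its neuron-like values were 20.3, 10.7 and 20.2 CPM in uninjured and 8.12, 8.67 and 21.7 CPM in injured libraries, all above the rest. The log2 difference was 2.60 ± 0.225 (edgeR, adjusted p = 3.22e-08). Neurog1, the earliest of these precursor factors, differed less, by 1.31 ± 0.250 on the log2 scale (edgeR, adjusted p = 0.000303), with 1.72 to 3.74 CPM in the rest against 4.49 to 11.6 CPM in neuron-like barcodes.

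Insm1 had 4.37 to 10.8 CPM in the rest and 11.8 to 27.2 CPM in neuron-like barcodes, a log2 difference of 1.39 ± 0.185 (edgeR, adjusted p = 3.53e-05). Ebf1 had 2.98 to 9.02 CPM in the rest and 12.8 to 26.7 CPM in neuron-like barcodes, a log2 difference of 1.62 ± 0.246 (edgeR, adjusted p = 0.000533). Ebf2 had 3.28 to 4.92 CPM and 8.12 to 15.5 CPM, with a log2 difference of 1.37 ± 0.180 (edgeR, adjusted p = 1.73e-06). Sox11, already open in the rest at 11 to 28.3 CPM, had 22.6 to 38.0 CPM in neuron-like barcodes, which overlap, and the smallest log2 difference of the 8, 0.68 ± 0.150 (edgeR, adjusted p = 0.00608).

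Hes6 stood apart. It was higher in neuron-like barcodes in 2 of 6 libraries, and its log2 difference was −0.14 ± 0.0741 (edgeR, adjusted p = 0.193). Its difference was −0.32 with no scaling beyond total cut sites, where the median promoter was at −0.19, and −0.51 with the class of at least 3 times the expected cut sites, both called lower (edgeR, adjusted p = 0.0463 and 0.00317). Those fits called 20.7% and 20.7% of all promoters lower, against 12% in the main fit.

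The 8 genes were each called again when only barcodes above their library's median depth were used, and with the class of 3 times the expected cut sites, in fits that called 8.79% and 14.9% of all promoters higher. In the latter class injured replicate 2 had 0 cut sites at Neurog1 and at Neurod1, against 3.29 and 2.57 CPM in its other barcodes. With barcodes thinned to 4000 cut sites to set the class, and all their cut sites then counted, 86 barcodes remained in it and only 3 libraries (uninjured replicate 3 and injured replicates 1 and 3) could be fitted; Olig2, Ebf1, Insm1 and Sox11 were called higher and Hes6 lower, where 1.54% of all promoters were called higher and 4.16% lower. The log2 differences of those not called were 1.36 for Nhlh1, 1.69 for Neurod1, 0.97 for Ebf2 and 0.93 for Neurog1, with adjusted p of 0.410, 0.270, 0.455 and 0.651 (edgeR).

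**Figure D2:**
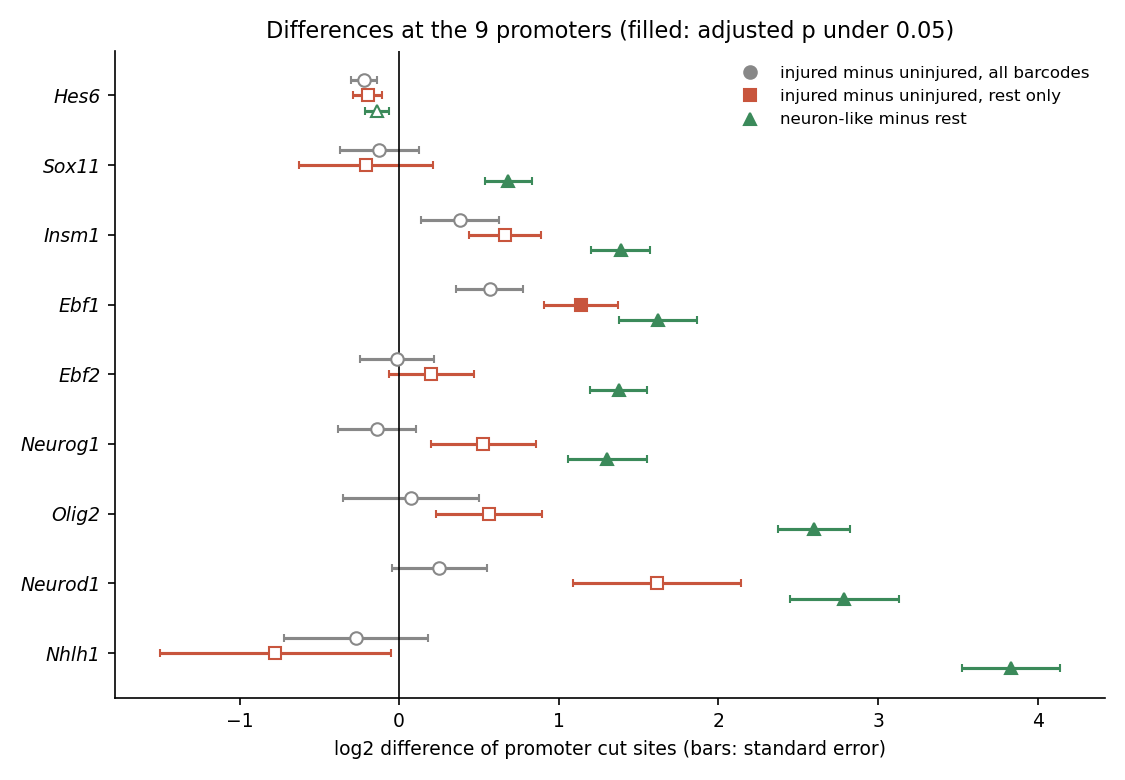
Log2 differences of promoter cut sites with standard errors for the 9 genes in the comparisons of injured with uninjured libraries (all barcodes and the rest) and of neuron-like barcodes with the rest; filled points have an adjusted p under 0.05. The neuron-like differences are the largest for most genes, from 0.68 to 3.83 for the 8 called, and Ebf1 is the only filled point of the injury comparisons.

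The study's labelled contrast, injured against uninjured, was read next over all barcodes. No member passed the test: 0 of 9 were called with edgeR and 0 of 9 with DESeq2, against a background of 3.96% of 17113 promoters called, 2.21% higher and 1.75% lower, and 2 of the 9, Hes6 and Ebf1, had an unadjusted p under 0.05, as had 3732 of the 17113. The median log2 difference of the 9 was −0.01, and over all promoters it was 0.00251.

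Hes6 measured 43.4, 37.8 and 38.9 CPM in uninjured libraries and 35.9, 32.2 and 34.7 CPM in injured ones, so all injured values lay below all uninjured ones. The log2 difference was −0.22 ± 0.080 (edgeR, adjusted p = 0.136), and with replicate number as a block it was −0.23 (edgeR, adjusted p = 0.0382). Ebf1 measured 8.89, 7.96 and 9.46 CPM in uninjured and 10.7, 9.89 and 18.2 CPM in injured replicates, without overlap but with injured replicate 3 far above the other two. Its log2 difference was 0.57 ± 0.210 (edgeR, adjusted p = 0.142), and 0.52 with the block (edgeR, adjusted p = 0.0449). No overlap between the groups was seen for 27.3% of all promoters.

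For the other 7 genes the groups overlapped. The log2 differences were 0.38 ± 0.245 for Insm1, 0.25 ± 0.299 for Neurod1, 0.07 ± 0.426 for Olig2, −0.01 ± 0.234 for Ebf2, −0.12 ± 0.246 for Sox11, −0.14 ± 0.245 for Neurog1 and −0.27 ± 0.451 for Nhlh1. Scaling on 10 kb bins instead of promoters gave a median promoter log2 difference of −0.37 and a Hes6 difference of −0.60 (edgeR, adjusted p = 0.000478), so relative to the median its difference was about the same as before.

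In the rest, Ebf1 rose after injury. Each comparison has its own TMM factors, so levels of the rest differ slightly from those given with the classes. Its promoter had 3.88, 5.34 and 3.19 CPM in uninjured libraries and 9.43, 8.36 and 9.66 CPM in injured ones, with every injured value above every uninjured value. The log2 difference was 1.14 ± 0.233 (edgeR, adjusted p = 0.00642), and Ebf1 was the 1 of 9 members called, against a background of 6.91% of 15619 promoters, 4.12% higher and 2.8% lower. Leaving out injured replicate 1 gave a log2 difference of 1.12 with an adjusted p of 0.0542 (edgeR), and defining the class after thinning gave 0.63 with an adjusted p of 0.0891 (edgeR). The thinned class held 86 barcodes, so its rest took in most of the 813 neuron-like ones. Over all barcodes the log2 difference of Ebf1 was 0.57.

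Neurod1 did not pass the test. It had 0.165, 0.629 and 0.820 CPM in the rest of uninjured replicates and 1.77, 1.70 and 1.82 CPM in the rest of injured replicates, from 2, 14 and 18 cut sites against 51, 23 and 30. The groups did not overlap and the log2 difference was 1.62 ± 0.525 (edgeR, adjusted p = 0.0703). Insm1 had 4.63, 5.93 and 6.38 CPM against 7.97, 11.6 and 7.66 CPM, again without overlap, with a log2 difference of 0.66 ± 0.224 (edgeR, adjusted p = 0.0807), and of 0.67 with the replicate block (edgeR, adjusted p = 0.0376). Olig2 had 1.98, 2.07 and 1.91 CPM against 2.70, 3.11 and 3.04 CPM, a small gap with no overlap and a log2 difference of 0.56 ± 0.335 (edgeR, adjusted p = 0.322). These 4 genes, Ebf1 included, were higher in every injured library than in every uninjured one, as were 14.6% of all promoters. The others had log2 differences of 0.53 ± 0.329 for Neurog1, 0.20 ± 0.263 for Ebf2, −0.20 ± 0.092 for Hes6, −0.21 ± 0.420 for Sox11 and −0.78 ± 0.721 for Nhlh1, none of them called.

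Markers of other cells also differed between the groups in the rest. The 3 immature neuron markers outside the class rule summed to 19.6 to 22 CPM in the rest of uninjured and 25.6 to 28.1 CPM in the rest of injured libraries. Most of that gap was Tubb3, which was called higher, at 3.87 ± 0.590 against 8.96 ± 1.71 CPM (mean ± SD, n = 3 each). Gng8 had 16.5 ± 1.82 against 17.7 ± 0.558 CPM and Dcx 0.331 ± 0.157 against 0.321 ± 0.107 CPM, both with overlap. The 4 mature neuron markers outside the rule summed to 18.4 to 21.2 CPM and 17.9 to 25.9 CPM, which overlap. Icam1, a horizontal basal cell marker, had 64.1, 46.1 and 43.7 CPM in uninjured and 32.7, 28.9 and 33.5 CPM in injured libraries, without overlap, although the sum of the 6 markers overlapped. Injured libraries had lower sums, without overlap, for the sustentacular markers (8.26 to 9.29 against 15.4 to 30.7 CPM) and the immune markers (10.3 to 13.1 against 14.2 to 27.6 CPM), and a higher sum for the 2 endothelial markers (1.87 to 2.19 against 0.719 to 1.07 CPM). However, 3 of the 5 immune markers and 1 of the 5 sustentacular markers were higher in injured libraries on average, so the sums do not speak for each gene. The sums of the globose basal cell and precursor markers overlapped (101 to 112 against 98.0 to 116 CPM). So did those of the Bowman's gland, microvillar, respiratory ciliated, ensheathing glia and fibroblast markers. In barcodes with no cut site over the 5 gene bodies Ebf1 was called as well (edgeR), with a log2 difference of 1.12. The part of these values in the differences of Ebf1, Neurod1, Insm1 and Olig2 was not tested.

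Whether the excess in neuron-like barcodes differed between injured and uninjured mice was tested with an interaction term. No member was called with edgeR, against 0.00594% of 16831 promoters, and 5 of 9 had an unadjusted p under 0.05, while 581 promoters did in all; DESeq2 was not run for this term. The log2 estimates of the interaction (excess in injured minus excess in uninjured libraries) were −1.85 ± 0.562 for Neurod1, −1.25 ± 0.445 for Neurog1, −1.14 ± 0.325 for Ebf1, −1.01 ± 0.391 for Olig2 and −0.74 ± 0.315 for Insm1, each with an adjusted p of 0.9998 (edgeR). With the thinned class those of Neurog1, Neurod1 and Insm1 were above 0, at 1.58, 0.12 and 0.10. That fit had uninjured replicate 3 as its only uninjured library, so its values are a description. Neuron-like barcodes of injured replicates 1 and 2 had 58.1% and 50.5% of their cut sites in open windows, against 70.6% to 72.4% in the other 4 libraries, and the part of this in these estimates was not tested.

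Each locus was then read in 500 bp tiles over the gene body and 50 kb on either side. Tiles within 1 kb of another gene's start were counted apart. Tiles at the members' own starts stayed in the counts, so these counts partly repeat the promoters. Of the members' tiles, 578 were open, meaning a mean CPM of at least 5 times that of the median non-empty tile. In the comparison of neuron-like barcodes with the rest, 261 of 479 tested tiles (54.5%) were called higher and 6 lower, against 14.1% and 7.54% of 336030 tiles over the genome, 21.6% in all. The limit for an open tile, 0.271 CPM, was set on the mean over all barcodes, so a tile could pass it through its level in neuron-like barcodes, and these counts are a description.

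Both Ebf loci carried most of these tiles. Ebf2 had 86 of 118 tested tiles higher and Ebf1 65 of 100, although the loci also hold the most tiles. The counts were 23 of 36 at Olig2, 19 of 33 at Insm1, 14 of 26 at Sox11, 18 of 34 at Neurog1, 19 of 49 at Nhlh1 and 9 of 28 at Neurod1, and differences between loci were not tested. Hes6 had 8 of 55 higher (14.5%) and 5 lower, next to the 14.1% of all tiles, and its region reaches into Per2.

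**Figure D3:**
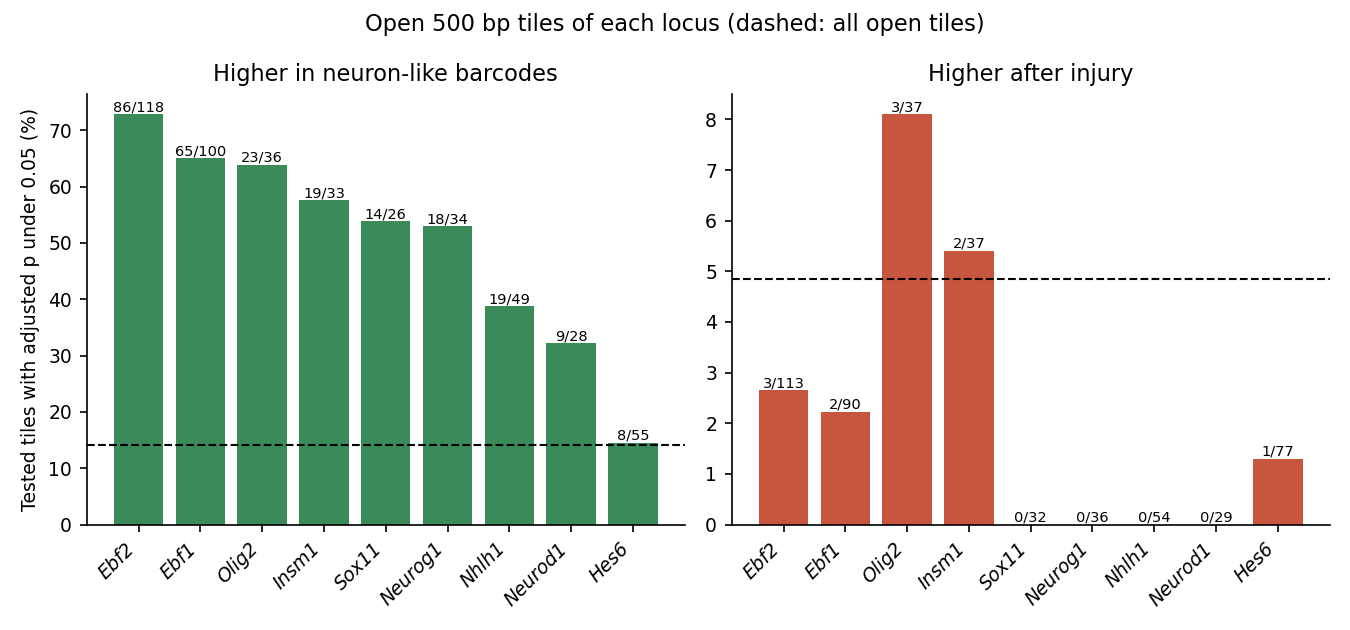
Percentage of tested open 500 bp tiles of each locus that were higher with an adjusted p under 0.05, in neuron-like barcodes against the rest (left) and in injured against uninjured libraries (right); dashed lines show all open tiles. In the class comparison Hes6, at 14.5%, lay next to the 14.1% of all open tiles and the other 8 loci lay above it, from 32.1% to 72.9%, while after injury the members together had 2.18% higher against 4.84%.

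For each gene the tile with the smallest p outside the promoters was then read. The first 4 had means in the rest below the limit for an open tile and passed it only through neuron-like barcodes, so their low level in the rest follows from how they were chosen and is given as a description. At Insm1 the tile chr2:146245501-146246000, 23.8 kb past the start and in an intron of Ralgapa2, went from 0.109 ± 0.0879 CPM to 4.83 ± 2.09 CPM, a log2 difference of 5.24. An intron tile of Ebf2, chr14:67278501-67279000, 45.5 kb past the start, went from 0.0712 ± 0.119 to 3.58 ± 1.92 CPM, a log2 difference of 5.46. At Ebf1 an intron tile 252 kb past the start, chr11:44869501-44870000, had a log2 difference of 5.49, from 0.0515 ± 0.0452 to 3.07 ± 1.77 CPM.

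Sox11 had its tile 39.2 kb before the start, chr12:27381501-27382000, with 0.0967 ± 0.0889 against 3.49 ± 1.64 CPM and a log2 difference of 4.94. The Neurog1 tile 29.6 kb before the start and the Nhlh1 tile 2.68 kb before the start differed by 4.53 and 4.59 on the log2 scale. For Neurod1 the tile 3.00 kb before the start, nearest to Cerkl, differed by 3.82, for Olig2 the tile 3.29 kb past the start by 3.70, and for Hes6 the tile at the end of the gene by 3.65. All 9 were picked by their p in this comparison, so their differences are a description. None kept its call with the thinned class, where the median tile was at −1.49. The Nhlh1 and Hes6 tiles were at −0.56 and −0.14 there. The other tiles stayed above 0 under every alternative, with lowest values from 0.79 (Neurod1) to 2.29 (Ebf2).

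The smallest-p tiles of Ebf1 and Neurog1 also lay far from the promoters described above, and those of Insm1, Ebf2 and Sox11 are shown as examples. The 300 bases with the most cut sites at each, from RefSeq GRCm38.p6 on the plus strand, have E-boxes in capitals.
Insm1 tile chr2:146245511-146245810: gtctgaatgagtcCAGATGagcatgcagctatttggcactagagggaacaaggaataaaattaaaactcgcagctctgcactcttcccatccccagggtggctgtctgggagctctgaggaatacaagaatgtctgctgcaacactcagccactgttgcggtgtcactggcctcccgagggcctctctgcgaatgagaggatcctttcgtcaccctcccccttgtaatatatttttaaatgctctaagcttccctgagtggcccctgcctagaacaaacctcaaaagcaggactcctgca
Ebf2 tile chr14:67278421-67278720: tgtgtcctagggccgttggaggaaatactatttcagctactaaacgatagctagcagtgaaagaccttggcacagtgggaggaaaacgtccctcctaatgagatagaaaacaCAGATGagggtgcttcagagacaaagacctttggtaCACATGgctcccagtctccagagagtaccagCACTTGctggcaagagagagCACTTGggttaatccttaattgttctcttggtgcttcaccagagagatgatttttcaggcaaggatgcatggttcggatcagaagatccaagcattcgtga
Sox11 tile chr12:27381691-27381990: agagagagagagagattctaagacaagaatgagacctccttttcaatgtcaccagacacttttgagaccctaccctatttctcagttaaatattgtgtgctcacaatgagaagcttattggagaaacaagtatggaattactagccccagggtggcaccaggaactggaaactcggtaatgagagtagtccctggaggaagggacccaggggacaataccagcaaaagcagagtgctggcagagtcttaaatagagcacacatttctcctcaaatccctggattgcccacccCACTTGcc
The stretches hold 1, 4 and 1 E-boxes. E-boxes were in 93.5% of the 261 higher tiles and 92.8% of all open tiles, and the EBF motif was in 3.07% and 1.97%. The AP-1 motif was in 7.66% of the higher tiles and 20.2% of all open tiles.

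**Figure D4:**
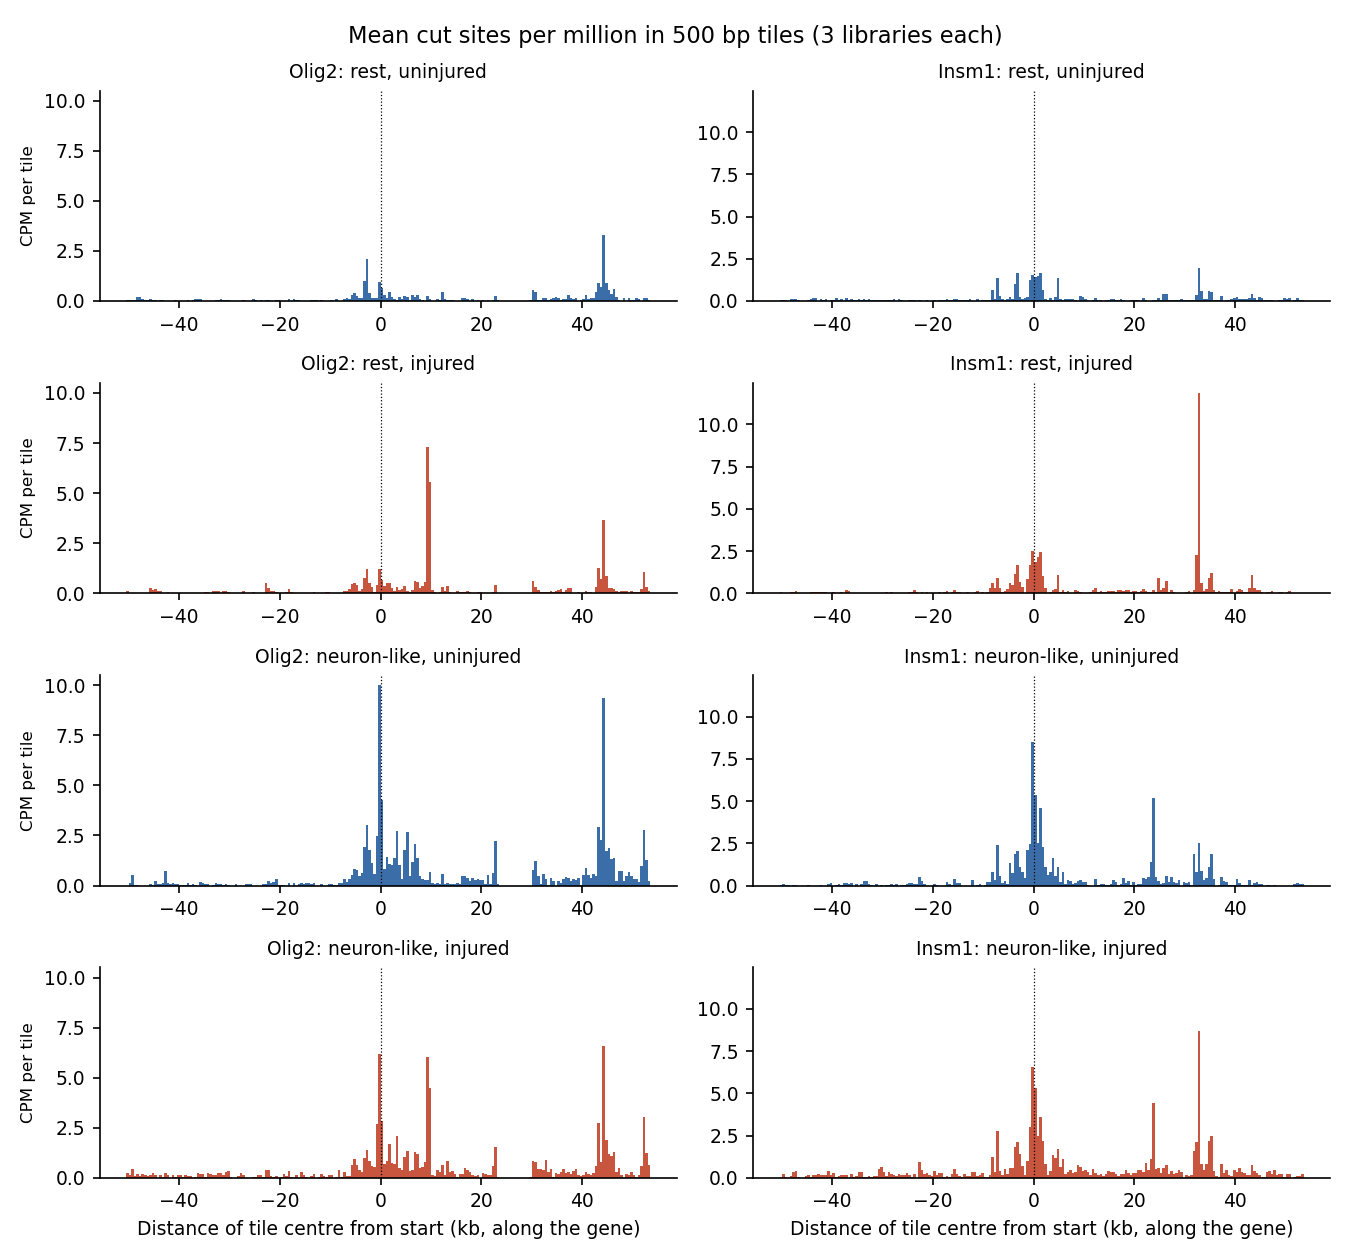
Mean CPM in 500 bp tiles along the Olig2 and Insm1 loci, by distance of the tile centre from the gene's start, in the rest and in neuron-like barcodes of each group (means of 3 libraries). Tiles around the starts are higher in neuron-like barcodes of both groups, and the tiles 9.29 kb past the start of Olig2 and 32.8 kb past that of Insm1 are high in both classes of the injured group.

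After injury, 11 of 505 tested tiles of the members were called higher and 3 lower, that is 2.18% higher, against 6.51% of 397121 tiles called over the genome, 4.84% higher and 1.66% lower. Neurog1, Neurod1 and Sox11 had none. With the replicate block 18 of 568 were called higher, against 5.81% over the genome, and without neuron-like barcodes 18 of 200, against 8.84%.

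Downstream of Olig2, the tile chr16:91234501-91235000, 9.29 kb past the start, had 0.26, 0.33 and 0.21 CPM in uninjured libraries, from 4, 11 and 7 cut sites, and 10.7, 6.89 and 3.26 CPM in injured ones, from 437, 148 and 126. Every injured library was above every uninjured one, and injured replicate 1 was the highest. The log2 difference was 4.68 ± 0.480 (edgeR, adjusted p = 0.0028). The adjoining tile, 9.79 kb past the start, had 0.13, 0.33 and 0.48 CPM against 7.41, 6.05 and 2.43 CPM, a log2 difference of 3.95 ± 0.505 (edgeR, adjusted p = 0.00343). In the rest alone the first tile differed by 4.84 (edgeR, adjusted p = 0.000296), and between the classes by −0.13 (edgeR, adjusted p = 0.800).

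Within an intron of Ralgapa2, 32.8 kb past the start of Insm1, the tile chr2:146254501-146255000 had 2.06, 2.04 and 2.68 CPM in uninjured and 17, 10.4 and 5.53 CPM in injured replicates. Its log2 difference was 2.27 ± 0.349 (edgeR, adjusted p = 0.00538), and this tile was also the most open distal tile of the locus. Past the end of Ebf1, the tile chr11:45012001-45012500 had 0, 0.09 and 0.09 CPM against 1.40, 0.88 and 0.70 CPM, from 0, 3 and 3 cut sites against 57, 19 and 27. Its log2 difference was 3.75 ± 0.676 (edgeR, adjusted p = 0.00957). At Ebf2 the tile 39.0 kb before the start had 0.13, 0.24 and 0.24 CPM against 1.94, 1.02 and 0.62 CPM, with a log2 difference of 2.48 ± 0.569 (edgeR, adjusted p = 0.0261), and without injured replicate 1 it was 1.92 (edgeR, adjusted p = 0.149).

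These adjoining Olig2 tiles, the Insm1 tile and the Ebf1 tile were called under every alternative in which they were tested, including each library left out. Each of the other 7 higher tiles and of the 3 lower tiles lost its call in at least 3 of the 6 fits that each left out 1 library. The 3 lower tiles lay in or beside Per2 (2, at the Hes6 locus) and in an intron of Vangl2 (1, at the Nhlh1 locus), with log2 differences of −0.83, −0.92 and −0.95.

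**Figure D5:**
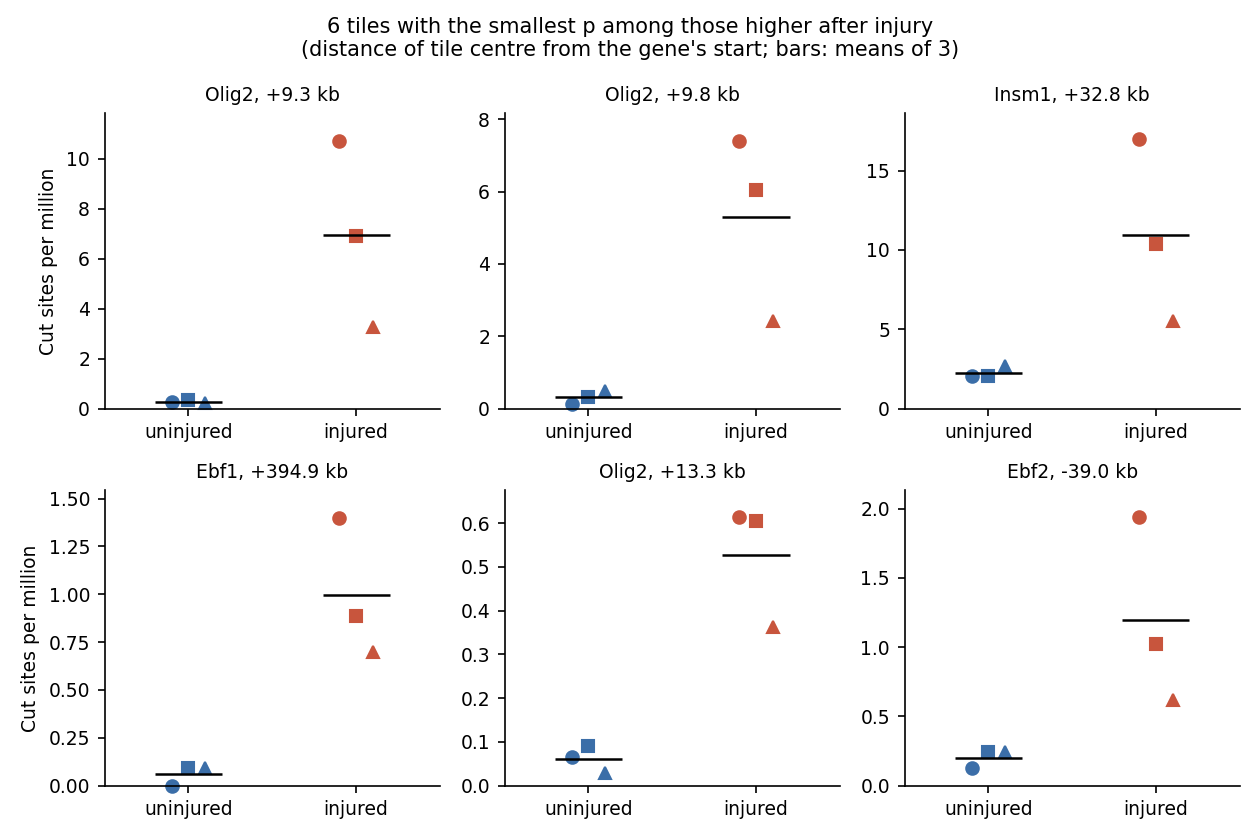
CPM in the 6 injury tiles of lowest p that were higher in injured libraries, 1 point per library with bars at the means of 3, with the distance of the tile centre from the gene's start. In each tile every injured library lies above every uninjured one, and the injured libraries are spread, for the first Olig2 tile from 3.26 to 10.7.

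The 300 bases with the most cut sites at the injury tiles of Olig2, Ebf1 and Insm1 are shown because these tiles were called under every alternative in which they were tested, with AP-1 motifs (TGANTCA) in capitals. The motif was in 4 of the 11 injury tiles, with adjoining tiles counted singly, in 13.0% of the members' open tiles and in 20.2% of all open tiles; with so few tiles this was not tested.
Olig2 tile chr16:91234851-91235150: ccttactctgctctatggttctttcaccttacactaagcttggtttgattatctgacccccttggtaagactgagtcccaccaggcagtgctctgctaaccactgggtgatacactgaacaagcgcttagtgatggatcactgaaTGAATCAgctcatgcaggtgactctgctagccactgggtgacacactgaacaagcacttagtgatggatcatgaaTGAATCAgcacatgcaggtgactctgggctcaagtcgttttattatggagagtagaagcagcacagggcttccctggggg
Ebf1 tile chr11:45012151-45012450: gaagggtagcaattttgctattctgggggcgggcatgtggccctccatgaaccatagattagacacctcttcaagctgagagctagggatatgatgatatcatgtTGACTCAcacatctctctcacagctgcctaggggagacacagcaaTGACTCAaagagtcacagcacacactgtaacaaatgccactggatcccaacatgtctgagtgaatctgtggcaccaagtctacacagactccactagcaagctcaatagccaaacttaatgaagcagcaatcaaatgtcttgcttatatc
Insm1 tile chr2:146254471-146254770: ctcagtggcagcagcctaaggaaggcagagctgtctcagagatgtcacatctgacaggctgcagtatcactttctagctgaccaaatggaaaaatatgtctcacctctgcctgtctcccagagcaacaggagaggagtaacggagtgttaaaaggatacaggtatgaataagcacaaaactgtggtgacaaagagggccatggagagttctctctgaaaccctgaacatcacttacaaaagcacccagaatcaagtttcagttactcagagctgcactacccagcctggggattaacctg
The Olig2 stretch holds 2 motifs that lie in similar copies of one sequence, the first across the border between both tiles, the Ebf1 stretch holds 2 and the Insm1 stretch none. A match is a description of letters and not a bound site.

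A list of 37 genes of the same pathway was read in the same fits. In the class comparison 13 were higher and 3 lower of 36 tested (background 10.2% higher and 12% lower), with a median log2 difference of 0.14 against 1.39 for the 9. Among near relatives of the members, 7 of 14 were higher, among them Olig1 (1.19 ± 0.152), Nhlh2 (2.28 ± 0.396), Ebf4 (0.82 ± 0.132) and Insm2 (0.98 ± 0.197), while of the Notch effectors that repress precursor factors Hes5 was higher (0.50 ± 0.148) and Hes1 lower (−0.35 ± 0.0964). Of the other early neuronal genes 5 of 11 were higher, with Dcx (3.01 ± 0.487) and Ncam1 (1.54 ± 0.176) in front. Of the 3 Notch ligands 1 was higher and Dll1 lower (−0.61 ± 0.154), none of 3 E proteins and none of 4 Id genes was called, and Rest, the repressor of neuronal genes, was lower (−0.48 ± 0.0885). All these calls are by edgeR, and Hes5 was named after its values were seen, outside the rule for named genes. Hes1 lost its call with DESeq2 (adjusted p = 0.0678) and without uninjured replicate 3 (edgeR, adjusted p = 0.0601), and Dll1 with the class set by cut sites at the 5 starts (edgeR, adjusted p = 0.0534). Both stayed below 0 under every alternative, at −0.28 or lower for Hes1 and −0.40 or lower for Dll1. With the thinned class, fitted on 3 libraries, Olig1, Ncam1 and Hes1 were called and Dll1 (−1.74), Rest (−1.48), Dcx (2.51), Ebf4 (0.65), Nhlh2 (1.01) and Insm2 (1.21) were not.

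Over all barcodes, 0 of the 36 tested genes of this list were called after injury with edgeR without the replicate block, with 8 at an unadjusted p under 0.05 (3732 of 17113 over all promoters) and 2 called by DESeq2 (6.51% over all promoters). In that edgeR fit Tubb3 and Tcf12 had adjusted p of 0.0556 and 0.0598. In the rest 2 were higher and 1 lower of 34: Tubb3, a neuronal tubulin, by 1.22 ± 0.235 (edgeR, adjusted p = 0.0042), Ncam1, a neural adhesion molecule, by 0.94 ± 0.243 (edgeR, adjusted p = 0.0261), and Tcf12, an E protein, by −0.45 ± 0.121 (edgeR, adjusted p = 0.0313). These 3 of 34 stand beside a background of 6.91% called, 4.12% higher and 2.8% lower. Tubb3 lost its call without injured replicate 1 (edgeR, adjusted p = 0.0616). Ncam1 lost it under 6 of 18 alternatives (without injured replicates 1 or 2 or uninjured replicates 1 or 2, among others) and Tcf12 under 9 of 18 (without any 1 library except injured replicate 3, among others), with adjusted p up to 0.137 and 0.135 (edgeR). With single libraries left out the log2 differences stayed at 1.09 to 1.36 for Tubb3, 0.873 to 1.01 for Ncam1 and −0.54 to −0.41 for Tcf12.

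Across the 12 sums of library and class, the promoters whose log2 levels followed the mean of the 9 most closely were Sult4a1 (Pearson r = 0.990), Camk2a (0.988), Thsd7b (0.986), Slc17a6 (0.986) and Fam149a (0.985), of 12235 compared, with a median r of −0.12. Only promoters with a mean of at least 5 CPM were compared. The 5 named had means of 0.957 to 1.82 CPM in the rest and 9.38 to 16.8 CPM in neuron-like barcodes. They thus passed that limit only through neuron-like barcodes, and r over sums of both classes takes in the class difference given above. The sums also share libraries and depth, so these are descriptions. Against the mean of the other 8, Olig2 had the highest r, 0.990, then Ebf2 (0.963), Neurod1 (0.949), Ebf1 (0.933), Nhlh1 (0.932), Insm1 (0.910) and Neurog1 (0.909); Sox11 had 0.633 and Hes6 −0.41.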

How the data were processed

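The data are 10x Genomics single-cell ATAC-seq libraries, 3 uninjured and 3 injured, and the deposited fragment files give a count of read pairs per fragment; per the submitters' processing notes they were made with Cell Ranger 2.0.0 on mm10. The deposited matrices of raw counts, which name software version 1.2.0 per the file headers, were not used. Both ends of each fragment were counted as cut sites, for barcodes with at least 2000 fragments, within 1 kb of the 5′-most GENCODE M21 start and in 500 bp tiles. Sums per library were tested with edgeR 4.0.16 (TMM, filterByExpr, robust quasi-likelihood) and, as an alternative, DESeq2 1.42.0 for promoters, with Benjamini-Hochberg adjustment over all features tested and a threshold of 0.05; class comparisons used 12 sums with library as a block. SE is the absolute log2 difference over the square root of F. Depth ranged from 14825320 to 44875242 cut sites per library. SDs and SEs take in the spread between libraries, while the limit for a count of 0 covers counting error only. Replicate numbers carry matching ages. Deviations from group means correlated by 0.113, 0.235 and 0.288 within same-numbered pairs. Other pairings ranged from −0.30 to 0.144, the highest of them above pair 1. Every same-numbered pair was over 0.1, and the numbers were taken to pair the samples in the replicate block and the paired test of shares. The main injury fits had no block, which was run as an alternative. The tests were run on simulated data first. All 9 genes were named, with the tile of highest CPM and of smallest p per locus and up to 6 list genes per direction. The members, the lists and the classes were chosen with earlier results of these data known. The class of 3 times the expected cut sites and the rest with no marker cut site were chosen after seeing the data, as was the paired test of shares.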

Additional observations from a re-analysis of the deposited data

How the results depend on the processing

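After injury over all barcodes, 1 member was called with factors from 10 kb bins and 1 with total cut sites only (Hes6, lower, in both), and 2 with the replicate block (Ebf1 and Hes6), in place of 0; the counts over all promoters went from 379 higher and 299 lower to 369 and 8441, to 417 and 6579, and, with the block, to 744 and 1084. DESeq2 called 633 and 481. With these bin and total scalings the median promoter was at −0.37 and −0.28, and in the rest at −0.26 and −0.24. In the rest, 3 members were called with either of these scalings (Ebf1, Neurod1 and, lower, Hes6), 2 with the replicate block, 2 with a 500 bp window and 0 with the thinned class, in place of 1; leaving out single libraries gave 0 to 2. Over all promoters of the rest these scalings called 37.1%, the block 12.3%, the 500 bp window 6.21% and the thinned class 4.91%, against 6.91%. The rest of the thinned class took in most neuron-like barcodes. Fits with single libraries left out called between 1.75% and 8.77%. Of the class differences, 5 were called with the thinned class in place of 8, namely 4 of the 8 (Ebf1, Insm1, Olig2 and Sox11) and Hes6, lower; the cause was not tested. The interaction called 0 to 2 members with single libraries left out (Ebf1 without uninjured replicate 2, Ebf1 and Insm1 without injured replicate 3, where 0.0120% and 0.331% of all promoters were called).

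Injury tiles called higher numbered 18 with the replicate block and 18 without neuron-like barcodes, in place of 11 (18 of 568 and 18 of 200 tested, against 5.81% and 8.84% over the genome). With single libraries left out 4 to 17 were called higher and 0 to 14 lower. Over the genome those fits called 1.02% to 7.87% of all tiles higher and 0.115% to 2.53% lower. Class tiles called lower numbered 14 with total cut sites and 40 with 3 times the expected cut sites, in place of 6. In those fits 14.3% and 39.0% of all tiles were called lower. Class tiles called higher numbered 156 with a stricter open threshold of 10 times the median tile and 1 with the thinned class, in place of 261. Those fits called 11% and 0.206% of all tiles higher, against 14.1%. The stricter threshold tested 247544 tiles over the genome in place of 336030. The thinned class held 86 barcodes and was fitted on fewer libraries. The causes of these changes were not tested. The thinned class turned the Nhlh1 tile 2.68 kb before the start to −0.56 and the Hes6 tile to −0.14, with the median tile at −1.49.

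Signs of log2 differences turned as follows; no turned value was called, and those under bin or total scaling and of both tiles did not turn relative to the median of all features in the same fit. Over all barcodes Neurog1 became 0.26 and Nhlh1 0.00226 without called doublets, Neurod1 −0.11 (10 kb bins) and −0.0177 (total), Ebf2 0.21 (every annotated start), 0.0263 (20% of cut sites in open tiles) and 0.14 (no doublets), and Olig2 −0.28 (bins), −0.18 (total), −0.0686 (replicate block) and −0.0274 (500 bp). With single libraries left out the ranges crossed 0 for Neurod1 (−0.0106 to 0.44), Nhlh1 (−1.09 to 0.0501), Sox11 (−0.39 to 0.0529), Ebf2 (−0.28 to 0.11) and Olig2 (−0.64 to 0.37), and in the rest for Sox11 (−0.56 to 0.0246, called lower without uninjured replicate 3). In the rest Neurog1 became −0.19 (thinned), Sox11 0.00418 (500 bp), Ebf2 −0.0566 (bins) and −0.0338 (total), and Olig2 −0.0418 (3 times expected). The Hes6 class difference became 0.0120 (500 bp). In the interaction the thinned class gave 1.58 for Neurog1, 0.12 for Neurod1, −1.06 for Nhlh1 and 0.10 for Insm1. These signs rest on uninjured replicate 3 as the only uninjured library. Total scaling gave −0.13 for Hes6. With single libraries left out Nhlh1 ranged from −0.0672 to 1.56, Hes6 from −0.0467 to 0.22 and Sox11 from −0.39 to 0.23.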
